A study of Mus musculus with 12 samples.

Results

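The genes described here are 38 interferon-stimulated genes, which were listed by symbol for their known induction by interferon. The list was drawn up with earlier results of these data known, so its counts beside those of all probe sets are a description. Probe sets were taken wherever the platform annotation gave a member's symbol, and the brightest probe set annotated to that gene alone stood for it. This gave 36 measured members out of 18194 genes with such a probe set, 15 of them with over 1 probe set. Isg15 was read only on a probe set shared with Gm9706 and is described apart from the counts, and Ifi44 was not analysed here.

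The study profiled astrocytes collected by laser capture microdissection, in which a laser lifts stained cells from a tissue section, from the lumbar spinal cord of male mice on Affymetrix Mouse Genome 430 2.0 arrays. The 4 groups of 3 mice were SOD1 G93A mice at 90 days (symptomatic), their non-transgenic (NTg) littermates at 90 days, SOD1 G93A mice at 120 days (late-stage) and NTg littermates at 120 days. The transgene of the SOD1 G93A mice is human SOD1 bearing a mutation of familial amyotrophic lateral sclerosis (ALS), in the line B6SJL-Tg(SOD1 G93A)1Gur/J backcrossed to C57Bl/6 J Ola/Hsd, and it is expressed by all cell types and not by astrocytes alone. About 1500 cells were cut from 10 µm sections of each animal, and each array holds 1 animal. The sources name both an ALDH1L1 antibody and toluidine blue as the stain that guided the capture.

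Interferons are secreted cytokines that cells release when they sense viral or misplaced nucleic acid. Type I interferons act through the IFNAR receptor and the kinases JAK1 and TYK2, which activate STAT proteins. STAT2 binds IRF9 and is carried to interferon response elements in promoters, while type II interferon (interferon gamma) drives STAT dimers to gamma-activated sites (GAS). The induced genes encode RNA sensors, blocks to viral entry and replication, and regulators that amplify or end the response. In the central nervous system both astrocytes and microglia are known to respond to interferon.

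The response element is visible in the promoters of several members, and 6 are shown because their genes carry the results below or stand for the family. The 250 bases before each RefSeq start (GRCm38.p6) were searched on both strands for the core GAAANNGAA, bound by IRF proteins, and for the GAS letters TTCNNNGAA, and a core on the other strand reads reversed and complemented in the windows below. Of the 30 members with a promoter in the table, 16 held at least 1 IRF core (53.3%), against 8.18% of 27025 genes and 7.13% of 32851 promoters. GAS letters stood in 7 of the 30 (23.3%), against 8.13% of genes. The members had been listed as interferon-stimulated, so these shares describe the list and are not a result of the arrays. Capitals mark the IRF core in the first 5 windows and the GAS letters in Irf1, and each window runs 5′ to 3′ along the gene.
Ifit3 (chr19:34583359-34583448, plus strand, bases -170 to -81): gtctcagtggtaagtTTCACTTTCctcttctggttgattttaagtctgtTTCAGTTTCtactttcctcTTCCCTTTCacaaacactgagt
Ifit1 (chr19:34640751-34640840, plus strand, bases -138 to -49): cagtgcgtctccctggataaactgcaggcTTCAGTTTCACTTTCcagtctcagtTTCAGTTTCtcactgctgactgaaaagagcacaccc
Isg15 (chr4:156200842-156200931, minus strand, bases -113 to -24): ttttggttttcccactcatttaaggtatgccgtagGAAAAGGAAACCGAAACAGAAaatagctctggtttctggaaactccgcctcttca
Oas1a (chr5:120907526-120907615, minus strand, bases -90 to -1): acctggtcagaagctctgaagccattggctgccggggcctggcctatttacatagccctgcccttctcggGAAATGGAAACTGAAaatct
Rsad2 (chr12:26456523-26456612, minus strand, bases -160 to -71): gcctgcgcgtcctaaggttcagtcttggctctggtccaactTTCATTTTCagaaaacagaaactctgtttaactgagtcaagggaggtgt
Irf1 (chr11:53769894-53769962, plus strand, bases -120 to -52): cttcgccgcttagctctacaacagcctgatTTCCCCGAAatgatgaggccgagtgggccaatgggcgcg
Ifit3, Ifit1 and Isg15 each held 3 IRF cores, Oas1a 2 that overlapped and Rsad2 1. Irf1 held no IRF core in either of its 2 promoters but had 1 GAS match, from base -90 to -82. The only IRF core that overlapped a GAS match was in Bst2.

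**Figure D1:**
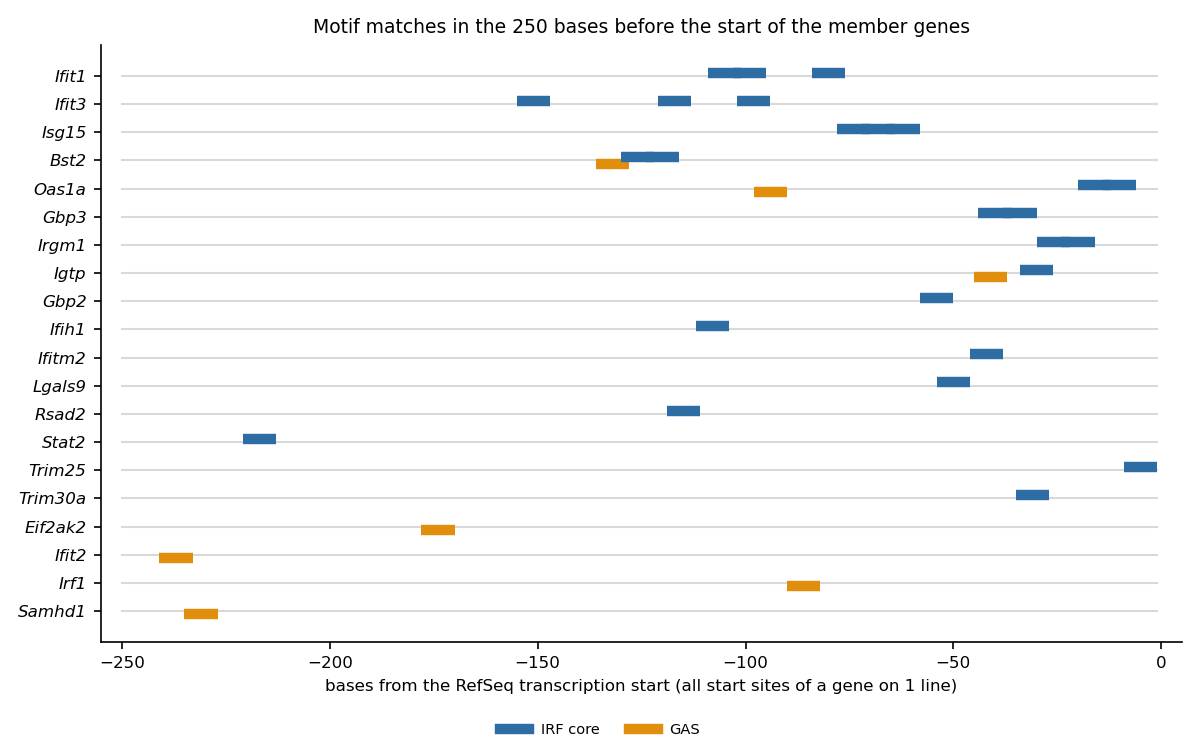
Positions of IRF core matches (blue) and GAS matches (orange) in the 250 bases before the RefSeq start of the member genes that hold either. The horizontal axis is the distance in bases from the start and each row is 1 gene. No IRF core began before base -130, apart from those of Ifit3 (base -155) and Stat2 (base -221).

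Levels are given as log2 of the array signal plus 7, quantile normalised within each age, and a difference of 1 is a doubling of that sum. A member was called when its limma p-value, adjusted over all 26132 probe sets that passed a filter on dim signals, was under 0.05. Of the 36 measured members, 33 passed the filter, and Dhx58, Zbp1 and Lgals9 did not. The 15 astrocyte markers all passed it, and so did the 15 neuron and 11 oligodendrocyte markers and 19 of 21 markers of microglia and macrophages, so transcripts that mark several cell types were read in the captured material. In such material more cells of a type and more RNA per cell cannot be told apart. Arrays correlated with the others of their group at 0.88 to 0.952, apart from replicate 3 of the SOD1 G93A mice at 120 days, at 0.835. At 90 days the deviations of SOD1 G93A replicate 1 and NTg replicate 3 from their group means correlated at 0.455. Some results of that age, though not all that rest on these arrays, are given below with and without them.

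At 120 days 6 members were higher in SOD1 G93A than in NTg mice and none was lower: Rsad2, Oas1a, Ifi35, Ifi30, Irf1 and Ifit3, by 2.22 fold (Irf1) to 3.92 fold (Oas1a). Over all probe sets tested, 3.60% were called higher and 3.86% lower. At 90 days no member was called by limma in either direction, against 0.115% of all probe sets called higher and 0.0230% lower, although 8 members had an unadjusted p under 0.05, all with the higher level in SOD1 G93A mice, where 2.80% of all probe sets were higher and 2.81% lower by that measure. At 120 days 14 members had an unadjusted p under 0.05, all higher, against 10.7% of all probe sets higher and 15.1% lower. With the study's rule (2-fold and an unadjusted p up to 0.05) 11 members were higher at 120 days, against 5.18% of all probe sets, and 0 at 90 days, against 0.999%. Positive differences were seen for 33 of the 36 members at 120 days, and the log2 fold changes ran from -0.43 to 1.97 around a median of 0.74. At 90 days 34 of 36 were positive, between -0.05 and 0.98 with the median at 0.54. Over all probe sets tested the medians were -0.07 at 120 days and -0.002 at 90 days, with 45.5% and 49.7% positive. The 3 SOD1 G93A arrays lay above the 3 NTg arrays for 16 members at 120 days (14.0% of all probe sets) and for 8 at 90 days (5.74%). Trim25, Ifit3 and Oas1a did so at both ages.

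**Figure D2:**
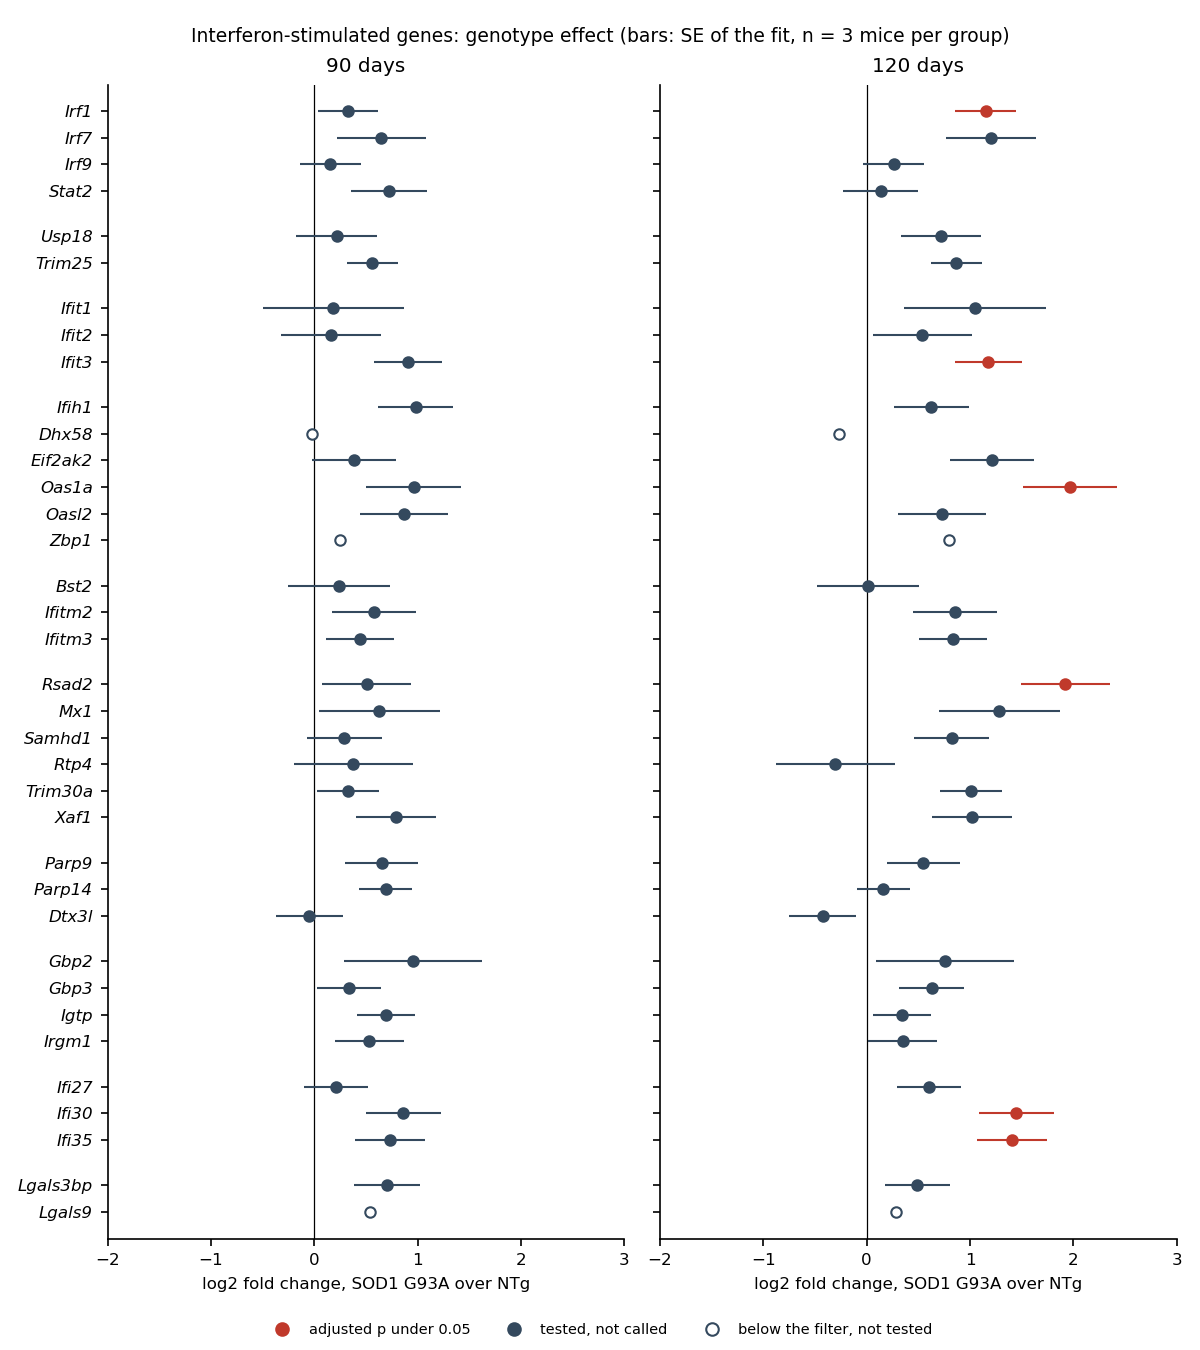
Genotype difference (log2, SOD1 G93A over NTg mice) of the 36 measured members at 90 days (left) and 120 days (right), in blocks of related function, with bars for the SE of the limma fit (3 mice a group). Red points mark the 6 members called at 120 days, and open points the 3 members below the filter. Most points lie to the right of 0 at both ages.

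Among the transcription factors, Irf1, which is induced by type II interferon and switches on further antiviral genes, was called at 120 days. Irf1 measured 7.44, 8.02 and 8.30 in SOD1 G93A mice, against 7.15, 6.88 and 6.27 in NTg mice. All 3 SOD1 G93A arrays were above all 3 NTg arrays, with a log2 fold change of 1.15 ± 0.29 (SE; adjusted p = 0.0321). At 90 days Irf1 measured 7.17, 7.17 and 6.94 in SOD1 G93A mice, against 6.56, 6.80 and 6.95 in NTg mice, where the groups overlapped (0.32 ± 0.29, adjusted p = 1.00). Irf7, the factor that amplifies type I interferon transcription, measured 6.95, 6.50 and 6.88 in SOD1 G93A mice, against 5.70, 5.78 and 5.25 in NTg mice at 120 days. Its groups were apart, but it did not pass the test (1.20 ± 0.43, adjusted p = 0.103). At 90 days Irf7 was 7.58, 6.15 and 5.38 in SOD1 G93A mice, against 5.63, 5.45 and 6.08 in NTg mice, with replicate 1 of the SOD1 G93A mice far above every other array of that age. Irf9, the DNA-binding partner of STAT2, averaged 6.35 ± 0.58 in SOD1 G93A mice and 6.09 ± 0.33 in NTg mice at 120 days (SD, n = 3 each) and 5.80 ± 0.05 in SOD1 G93A mice and 5.64 ± 0.15 in NTg mice at 90 days, differences of 0.26 and 0.15. Stat2 itself averaged 4.63 ± 0.62 in SOD1 G93A mice and 4.50 ± 0.56 in NTg mice at 120 days and 5.81 ± 0.38 in SOD1 G93A mice and 5.09 ± 0.28 in NTg mice at 90 days. Its arrays were apart at 90 days (0.72 ± 0.36, adjusted p = 0.933) and overlapped at 120 days.

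Isg15 encodes a ubiquitin-like protein that is joined to other proteins after interferon treatment. Its probe set, which can also read Gm9706, measured 6.16, 6.65 and 6.75 in SOD1 G93A mice, against 5.26, 5.59 and 4.86 in NTg mice at 120 days. The groups were apart on that shared probe set, with a log2 fold change of 1.29 (adjusted p = 0.027). At 90 days the shared probe set measured 6.86, 6.50 and 5.90 in SOD1 G93A mice, against 5.51, 6.07 and 6.07 in NTg mice (0.54, adjusted p = 1.00). Trim25, a ubiquitin ligase that activates an RNA sensor, measured 9.01, 8.43 and 8.30 in SOD1 G93A mice, against 7.95, 7.45 and 7.74 in NTg mice at 120 days. On this probe set, its brightest, it fell just short of the threshold (0.87 ± 0.25, adjusted p = 0.0513). At 90 days Trim25 measured 9.07, 8.88 and 9.14 in SOD1 G93A mice, against 8.45, 8.45 and 8.51 in NTg mice, again with no overlap but with a smaller difference of 0.56 ± 0.25 (adjusted p = 0.864). The other tested Trim25 probe set lay at 0.22 at 120 days (adjusted p = 0.721) and 0.38 at 90 days, with overlapping arrays at both ages. Usp18, which strips ISG15 from proteins and dampens the receptor, averaged 5.56 ± 0.51 in SOD1 G93A mice and 4.84 ± 0.78 in NTg mice at 120 days and 5.30 ± 0.27 in SOD1 G93A mice and 5.08 ± 0.44 in NTg mice at 90 days, with overlapping arrays at both ages.

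Of the IFIT proteins, which bind foreign RNA, Ifit3 was called at 120 days. Ifit3, whose promoter is printed above with 3 IRF cores, measured 7.06, 7.57 and 7.18 in SOD1 G93A mice, against 5.83, 6.68 and 5.76 in NTg mice. Its lowest SOD1 G93A array was above its highest NTg array, and the log2 fold change was 1.18 ± 0.33 (adjusted p = 0.0456). At 90 days Ifit3 measured 8.01, 7.96 and 7.25 in SOD1 G93A mice, against 6.81, 6.44 and 7.25 in NTg mice, with replicate 3 of the SOD1 G93A mice and replicate 3 of the NTg mice almost level, and the difference of 0.91 ± 0.33 was not called (adjusted p = 0.665). Ifit1, also with 3 IRF cores, averaged 6.54 ± 1.37 in SOD1 G93A mice and 5.49 ± 1.04 in NTg mice at 120 days. Its scatter was wide, since replicate 3 of the SOD1 G93A mice lay far below the other 2, and the difference of 1.05 ± 0.68 was not called (adjusted p = 0.356). Ifit2 differed by 0.54 ± 0.48 at 120 days and 0.16 ± 0.48 at 90 days, and at 90 days its sign turned without SOD1 G93A replicate 2 or NTg replicate 3.

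Oas1a, an oligoadenylate synthetase that activates the RNA-cutting enzyme RNase L, had the highest fold of the members at 120 days. It measured 8.19, 7.64 and 8.81 in SOD1 G93A mice, against 5.94, 7.01 and 5.78 in NTg mice. The groups did not overlap, and the log2 fold change was 1.97 ± 0.46 (adjusted p = 0.0227). At 90 days Oas1a measured 8.75, 7.37 and 7.10 in SOD1 G93A mice, against 6.98, 6.35 and 7.01 in NTg mice, without overlap but with only replicate 1 well above the NTg arrays (0.96 ± 0.46, adjusted p = 0.908). Oasl2, a related protein, averaged 6.16 ± 0.31 in SOD1 G93A mice and 5.43 ± 0.33 in NTg mice at 120 days and 6.07 ± 0.88 in SOD1 G93A mice and 5.20 ± 0.66 in NTg mice at 90 days, and was not called (0.73, adjusted p = 0.301, and 0.87, adjusted p = 0.922).

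Eif2ak2 encodes PKR, the kinase that stops translation when it binds double-stranded RNA. It measured 7.29, 7.96 and 8.67 in SOD1 G93A mice, against 7.39, 6.16 and 6.74 in NTg mice at 120 days. NTg replicate 1 was slightly above the lowest SOD1 G93A array, and the difference of 1.21 ± 0.41 was not called (adjusted p = 0.0833). At 90 days the difference was 0.38 ± 0.41. Ifih1, the sensor of long double-stranded RNA, had the largest difference of all members at 90 days and measured 7.04, 6.51 and 6.53 in SOD1 G93A mice, against 5.72, 6.11 and 5.30 in NTg mice. Its arrays were apart then, yet it was not called (0.98 ± 0.36, adjusted p = 0.694). At 120 days Ifih1 measured 6.78, 6.41 and 5.36 in SOD1 G93A mice, against 5.19, 5.60 and 5.89 in NTg mice, with SOD1 G93A replicate 3 within the NTg range (0.62 ± 0.36, adjusted p = 0.297). Dhx58, a helicase that tunes these sensors, and Zbp1, a sensor that triggers cell death, were below the filter, with deposited signals of 8.5 to 41.5 and 1.6 to 23.3 over the 12 arrays.

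None of the 3 membrane proteins that block viral entry or release was called. Ifitm3, which blocks fusion of viruses with the endosome, measured 8.05, 8.15 and 7.82 in SOD1 G93A mice, against 7.26, 6.96 and 7.30 in NTg mice at 120 days. The groups did not overlap, and the difference was 0.84 ± 0.33 (adjusted p = 0.131). At 90 days Ifitm3 differed by 0.44 ± 0.33, with overlapping arrays. Its relative Ifitm2 averaged 6.38 ± 0.95 in SOD1 G93A mice and 5.53 ± 0.07 in NTg mice at 120 days, also without overlap (0.85 ± 0.41, adjusted p = 0.207). Bst2, or tetherin, which holds budding virus on the cell surface, averaged 4.85 ± 0.80 in SOD1 G93A mice and 4.84 ± 0.70 in NTg mice at 120 days, a difference of 0.01 ± 0.50.

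Rsad2 encodes viperin, an enzyme that makes a chain-ending nucleotide, and had the smallest p-value of the members between genotypes. At 120 days it measured 8.25, 9.16 and 9.20 in SOD1 G93A mice, against 7.08, 7.18 and 6.59 in NTg mice. Every SOD1 G93A array was over 1 unit above every NTg array, and the log2 fold change was 1.92 ± 0.43 (3.79 fold, adjusted p = 0.0195). At 90 days Rsad2 measured 8.65, 6.95 and 7.01 in SOD1 G93A mice, against 6.91, 6.75 and 7.43 in NTg mice, where only replicate 1 of the SOD1 G93A mice was outside the NTg range (0.51 ± 0.43, adjusted p = 1.00). Without that array the difference at 90 days was -0.05.

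**Figure D3:**
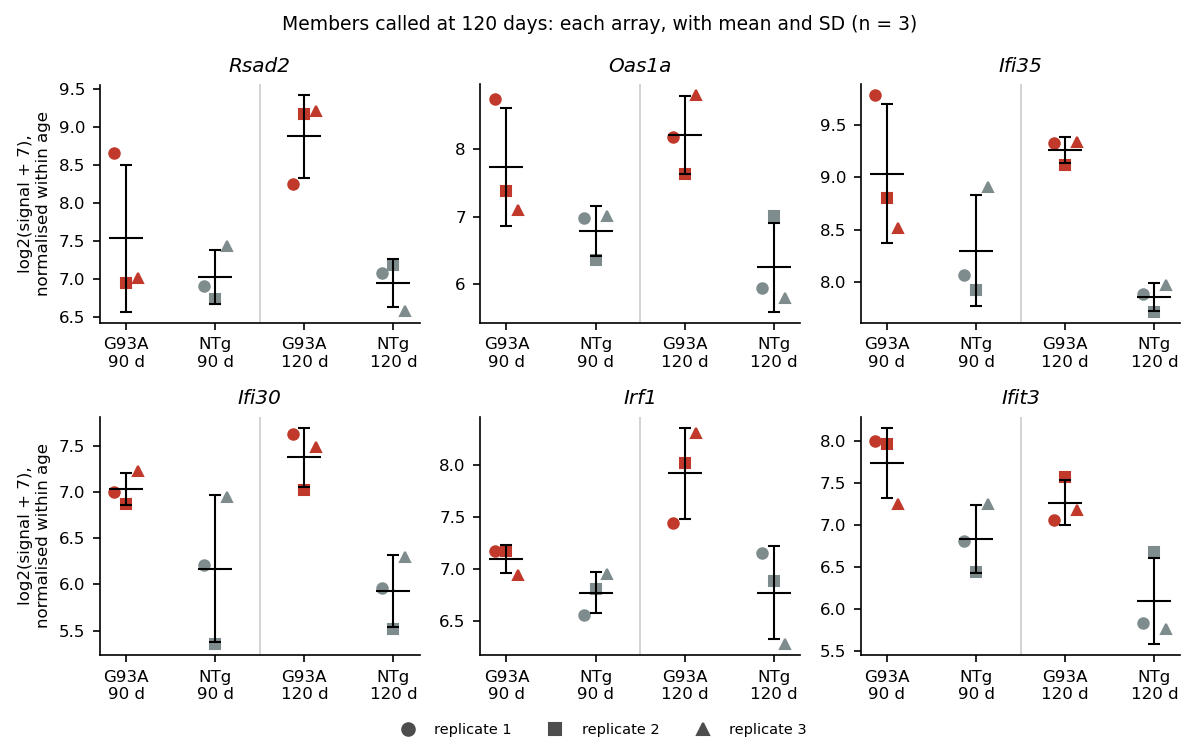
Log2 (signal + 7), normalised within age, of the 6 called members on each array, for SOD1 G93A (red) and NTg (grey) mice at 90 and 120 days, with the mean and SD of 3 mice in black. At 120 days the SOD1 G93A and NTg arrays are apart in all 6 panels, while at 90 days those of Rsad2, Ifi35, Ifi30 and Irf1 overlap.

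Other antiviral effectors had differences near 1 at 120 days that were not called. Trim30a, which restrains Toll-like receptor signalling in the mouse, measured 7.05, 7.18 and 7.70 in SOD1 G93A mice, against 6.36, 6.18 and 6.35 in NTg mice and was apart by 1.01 ± 0.30 (adjusted p = 0.0566). Xaf1, an antagonist of the apoptosis inhibitor XIAP, measured 8.23, 7.31 and 7.28 in SOD1 G93A mice, against 6.67, 6.36 and 6.73 in NTg mice at 120 days (1.02 ± 0.39, adjusted p = 0.119). Mx1, a dynamin-like GTPase gene, measured 5.55, 6.20 and 5.08 in SOD1 G93A mice, against 4.97, 4.77 and 3.23 in NTg mice at 120 days. Mx1 was a dim probe set with wide scatter, and its difference of 1.29 ± 0.58 was not called (adjusted p = 0.185). Samhd1, which depletes the nucleotides that viruses copy from, measured 7.34, 6.80 and 7.88 in SOD1 G93A mice, against 6.72, 6.58 and 6.26 in NTg mice at 120 days (0.82 ± 0.36, adjusted p = 0.173). The arrays of all 4 genes were apart at 120 days. At 90 days their differences were 0.33 for Trim30a, 0.79 for Xaf1, 0.63 for Mx1 and 0.29 for Samhd1, all with overlap. Rtp4, a chaperone of receptor trafficking, went the other way at 120 days at -0.30 ± 0.58, and this rested on SOD1 G93A replicate 3, at a level of 4.05, without which the difference was 0.66.

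Parp14, an enzyme that attaches ADP-ribose to proteins, had a larger difference at 90 than at 120 days, and neither was called. It measured 6.70, 6.32 and 6.10 in SOD1 G93A mice, against 5.47, 5.50 and 6.06 in NTg mice at 90 days, and averaged 6.13 ± 0.17 in SOD1 G93A mice and 5.97 ± 0.17 in NTg mice at 120 days. The arrays were apart only at 90 days, where it was not called (0.69 ± 0.26, adjusted p = 0.694, and 0.16 ± 0.26, adjusted p = 0.73). Parp9 and Dtx3l form a ubiquitin ligase complex, and neither was called. Parp9 differed by 0.55 ± 0.35 at 120 days and 0.65 ± 0.35 at 90 days, and Dtx3l, on its brightest probe set the only tested member below 0 at both ages, by -0.43 ± 0.32 and -0.05 ± 0.32. Its other tested probe set lay at 0.17 at both ages.

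The interferon-inducible GTPases, which attack vacuoles that hold microbes, included no called member. Igtp measured 7.70, 7.57 and 7.39 in SOD1 G93A mice, against 6.77, 6.72 and 7.09 in NTg mice at 90 days and 7.58, 7.46 and 6.56 in SOD1 G93A mice, against 6.78, 6.80 and 7.01 in NTg mice at 120 days. It was apart at 90 days (0.69 ± 0.28, adjusted p = 0.801), and at 120 days SOD1 G93A replicate 3 fell below all NTg arrays (0.34 ± 0.28, adjusted p = 0.47). Irgm1 had the same arrangement, with means of 5.88 ± 0.02 in SOD1 G93A mice and 5.34 ± 0.40 in NTg mice at 90 days and 6.48 ± 0.71 in SOD1 G93A mice and 6.13 ± 0.22 in NTg mice at 120 days. Gbp2 and Gbp3 differed by 0.75 ± 0.67 and 0.63 ± 0.31 at 120 days and by 0.96 ± 0.67 and 0.34 ± 0.31 at 90 days, and Gbp2 had the widest scatter of these genes, with an SD of 1.59 among the SOD1 G93A mice at 120 days.

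Both called genes of the IFI group reached the threshold at 120 days alone. Ifi30 encodes GILT, a lysosomal reductase that prepares antigens, and measured 7.63, 7.02 and 7.48 in SOD1 G93A mice, against 5.96, 5.52 and 6.30 in NTg mice at 120 days. The groups were apart, by 1.45 ± 0.36 (adjusted p = 0.0307). At 90 days Ifi30 measured 6.99, 6.87 and 7.22 in SOD1 G93A mice, against 6.21, 5.35 and 6.94 in NTg mice, where NTg replicate 3 reached the SOD1 G93A range (0.86 ± 0.36, adjusted p = 0.833). Ifi35, a partner of the interferon-induced protein NMI, measured 9.33, 9.12 and 9.34 in SOD1 G93A mice, against 7.88, 7.71 and 7.97 in NTg mice at 120 days. It had the least scatter of the called genes, and the difference was 1.41 ± 0.34 (adjusted p = 0.0266). At 90 days Ifi35 measured 9.78, 8.80 and 8.51 in SOD1 G93A mice, against 8.07, 7.93 and 8.90 in NTg mice, again with NTg replicate 3 inside the SOD1 G93A range (0.73 ± 0.34, adjusted p = 0.889). Ifi27, a small membrane protein of mitochondria, averaged 9.55 ± 0.21 in SOD1 G93A mice and 8.95 ± 0.29 in NTg mice at 120 days, without overlap and without a call (0.60 ± 0.31, adjusted p = 0.238). Lgals3bp, a secreted protein that binds galectins, differed by 0.49 ± 0.32 at 120 days and 0.70 ± 0.32 at 90 days. Lgals9, a galectin with immune functions, was below the filter, with deposited signals of 1.4 to 65.6.

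The members were not evenly raised on the arrays of a group. At 90 days SOD1 G93A replicate 1 was the highest of its group for 21 of 36 members and replicate 3 the lowest for 25, while NTg replicate 3 was the highest of its group for 28. The mean level over the 36 members was 6.82, 6.57 and 6.20 on the SOD1 G93A arrays, against 5.96, 5.79 and 6.30 on the NTg arrays at 90 days. NTg replicate 3 was thus above SOD1 G93A replicate 3. At 120 days the mean was 6.79, 6.79 and 6.48 on the SOD1 G93A arrays, against 5.95, 6.0 and 5.92 on the NTg arrays, with no overlap. SOD1 G93A replicate 3 at 120 days was lowest of its group for 19 members, among them Rtp4, Gbp2, Ifit1, Ifih1, Igtp and Irgm1, and highest for 11, among them Rsad2, Oas1a, Irf1 and Eif2ak2. Without SOD1 G93A replicate 1 and NTg replicate 3 of 90 days together, the median of the members at 90 days was 0.52, and no member was called at that age. Leaving out single arrays at 120 days changed the number called there more: 0 members were called without NTg replicate 3, 1 without SOD1 G93A replicate 3 (Trim25), 1 without NTg replicate 2 (Oas1a) and 2 without NTg replicate 1 (Irf1 and Rsad2), while no called member turned its sign. The probe sets called in either direction in those fits were, in the same order, 594, 1101, 467 and 1041.

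**Figure D4:**
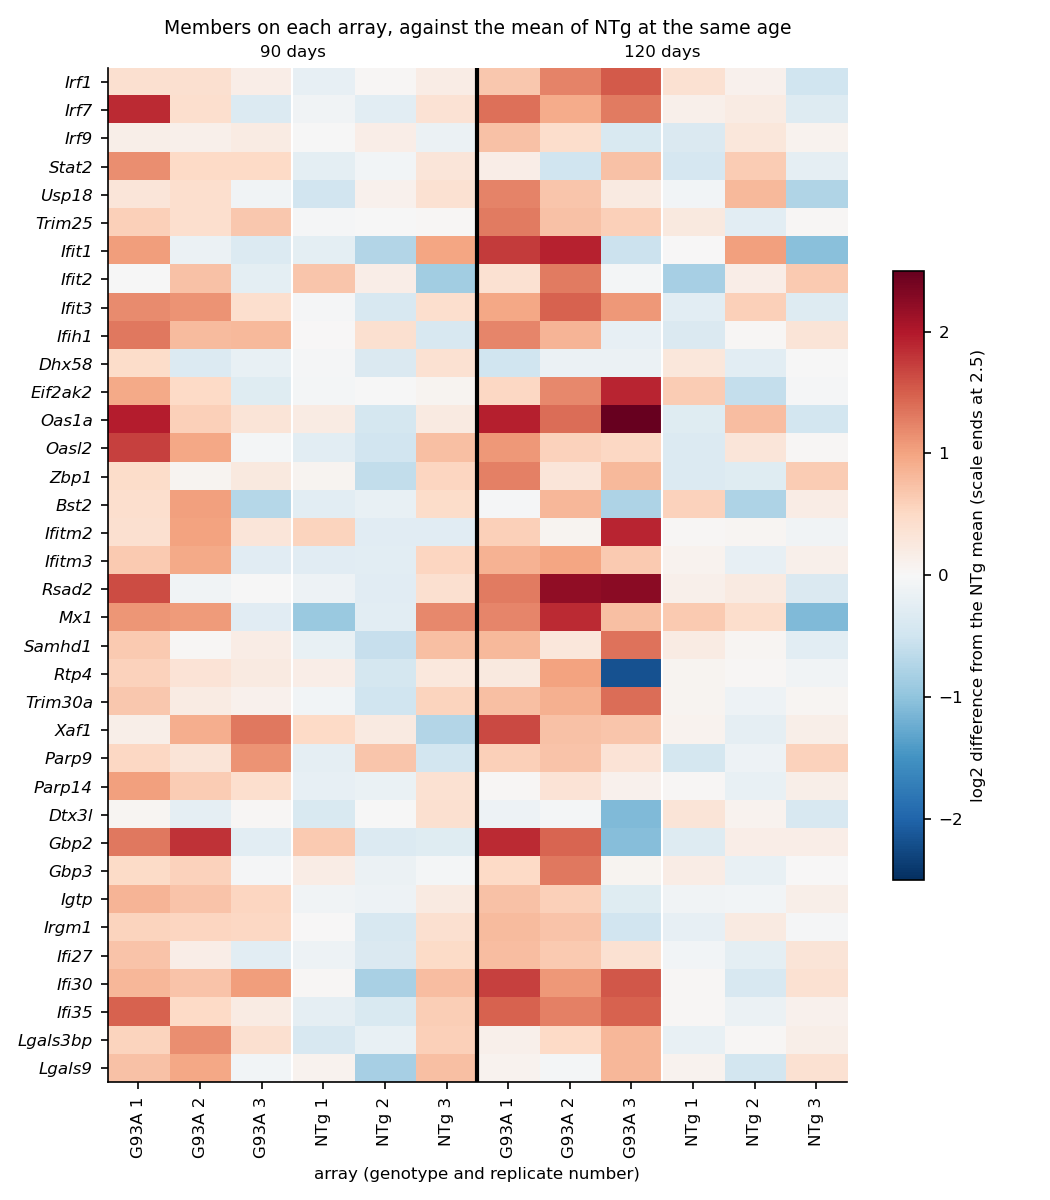
Difference in log2 (signal + 7) of each array from the mean of the 3 NTg arrays of the same age, for the 36 measured members (rows) on the 12 arrays (columns). Red is higher and blue lower. Columns G93A 1 and NTg 3 at 90 days hold the most red cells of their groups, and column G93A 3 at 120 days holds both the strongest red (Oas1a) and the strongest blue (Rtp4) cells.

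Whether the genotype difference itself was larger at 120 than at 90 days was tested as an interaction. It was larger for 22 members and smaller for 14, with a median of 0.29, and limma called none of them and 0 of all 26132 probe sets. Rsad2 alone had an unadjusted p under 0.05, with the larger difference at 120 days, as did 4.42% of all probe sets. Its interaction was 1.41 ± 0.61 (limma adjusted p = 0.519). Calls at 120 days and not at 90 days are therefore not shown to differ between the ages.

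Between the ages within a genotype, all 12 arrays were normalised together, and age cannot be told apart from any run of arrays that went with it. In SOD1 G93A mice Eif2ak2 was higher at 120 than at 90 days and Stat2 lower, with 3.06% of all probe sets called higher and 3.94% lower. Eif2ak2 measured 7.28, 7.99 and 8.72 at 120 days, against 6.42, 6.02 and 5.28 at 90 days, a log2 fold change of 2.09 ± 0.41 (adjusted p = 0.0123). The ages did not overlap. Stat2 measured 4.40, 3.79 and 5.01 at 120 days, against 6.33, 5.73 and 5.73 at 90 days, a change of -1.53 ± 0.36 (adjusted p = 0.0253), and was not called when each age was normalised alone or the deposited values were used. The Stat2 signal was above the array median on 3 SOD1 G93A arrays and 1 NTg array at 90 days and on none at 120 days. Stat2 thus passed the filter through the 90-day arrays alone, where it was high, so its call cannot be read apart from that selection. It was also called with no filter. With the second brightest probe set or the mean of a gene's probe sets neither Eif2ak2 nor Stat2 was called. The second Stat2 probe set was below the filter and could not be called. The median of the members was -0.10 and turned positive with each age normalised alone (0.18) and with the deposited values (0.25). In NTg mice no member was called by limma between 120 and 90 days (1.14% of all probe sets higher, 2.48% lower). At an unadjusted p under 0.05, 8 members were lower, among them Samhd1 (-1.14 ± 0.36) and Ifit3 (-0.90 ± 0.33), and Eif2ak2 was higher (1.15 ± 0.41). Of all probe sets 10.6% were lower and 9.27% higher by that measure. The median over the 36 members was -0.33.

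Probe sets of 1 gene differed in places. Of 11 members with over 1 tested probe set, 10 had the same sign on all of them at 120 days and 9 at 90 days. For Rsad2 a second probe set was called at 120 days (1.45, adjusted p = 0.0321), and for Ifi35 a second was called (1.02, adjusted p = 0.0375) and another was not (0.37). For Samhd1 1 probe set other than the brightest was called (2.91, adjusted p = 0.0357) while another lay at 0.02, and for Parp14 the dimmer probe set was called (1.19, adjusted p = 0.0471) although the brightest, used here, lay at 0.16. The brightest probe sets of Ifi35, Trim25, Ifi27 and Gbp2 are of the kind Affymetrix marks as able to match several transcripts. The second called probe set of Ifi35 is so marked as well, while its uncalled probe set (0.37, adjusted p = 0.561) is not.

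The genes around the pathway were read from lists set beside the members. All 9 measured interferon ligands, among them Ifnb1 and Ifng, were below the filter, with Ifnb1 at deposited signals of 4.3 to 55.3 and Ifng at 0.4 to 35.8. Of 9 receptor and kinase genes measured, none was called between genotypes. At each age 1 of them, Jak1, had an unadjusted p under 0.05 in limma and was lower. By that measure 15.1% of all probe sets were lower at 120 days and 2.81% at 90 days. Ifnar1, a chain of the type I receptor, averaged 7.76 ± 0.20 in SOD1 G93A mice and 7.30 ± 0.15 in NTg mice at 120 days (0.45 ± 0.24, adjusted p = 0.259) and 6.82 ± 0.35 in SOD1 G93A mice and 6.75 ± 0.04 in NTg mice at 90 days. Ifnar2, its partner, differed by 0.45 ± 0.29 at 120 days, Ifngr1, a chain of the type II receptor, by 0.25 ± 0.23, and Ifngr2 by -0.35 ± 0.50. The kinases Jak2 and Tyk2 differed by 0.38 ± 0.27 and 0.45 ± 0.28 at 120 days. Jak1, the kinase shared by both receptors, was on the other side. It differed by -0.98 ± 0.29 at 120 days (adjusted p = 0.0581) and -0.70 ± 0.29 at 90 days (adjusted p = 0.833). Ifnlr1 and Il10rb, the chains of the interferon lambda receptor, lay at -0.73 ± 0.43 and -0.80 ± 0.48 at 120 days.

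Of 16 measured sensors and inducers of interferon, 1 was called higher at each age and none lower. That gene was Irf8, a transcription factor of the myeloid lineage, which differed by 2.84 ± 0.30 at 120 days (adjusted p = 2.61e-04) and 2.23 ± 0.30 at 90 days (adjusted p = 0.0101). The adaptor Mavs missed the threshold at 120 days (1.06 ± 0.31, adjusted p = 0.0538). Of 10 measured negative regulators, 3 were called higher at 120 days. Socs3, which blocks JAK kinases, differed by 3.61 ± 0.41 (adjusted p = 3.75e-04) and Ptpn6, the phosphatase SHP-1 of blood-derived cells, by 1.99 ± 0.30 (adjusted p = 0.00271), and Cd300lf, an inhibitory receptor of myeloid cells, was the third. Cd300lf measured 5.77, 6.17 and 6.68 in SOD1 G93A mice, against 5.04, 3.95 and 5.31 in NTg mice at 120 days. It was above the array median on no NTg array of either age, and so passed the filter through the SOD1 G93A arrays alone. Socs3 was also called at 90 days (2.63 ± 0.41, adjusted p = 0.0238).

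A further 44 genes listed here as interferon-stimulated were measured, 34 of them above the filter, and their median difference was 0.45 at 120 days and 0.24 at 90 days. At 120 days 6 were called higher and 1 lower, and at 90 days none was called, with 5 at an unadjusted p under 0.05. Gbp7 differed by 1.57 ± 0.39 (adjusted p = 0.0308), Uba7, the enzyme that activates ISG15, by 1.50 ± 0.41 (adjusted p = 0.0419) and Herc3, which was lower, by -1.17 ± 0.32 (adjusted p = 0.0401). The other 4 called genes were dim in NTg mice at 120 days, with Lgals3, Ccl5 and Tent5c above the array median on no NTg array of that age and Cxcl10 on 1, and their levels are given without a fold. Lgals3, a galectin of phagocytes, measured 9.97, 10.89 and 10.57 in SOD1 G93A mice, against 4.73, 3.08 and 4.09 in NTg mice at 120 days. The chemokine Ccl5 measured 6.75, 9.44 and 9.18 in SOD1 G93A mice, against 3.43, 3.37 and 5.30 in NTg mice and the chemokine Cxcl10 6.69, 8.36 and 6.64 in SOD1 G93A mice, against 4.73, 5.60 and 3.26 in NTg mice. Tent5c, a poly(A) polymerase, measured 7.99, 8.66 and 8.69 in SOD1 G93A mice, against 5.13, 5.03 and 3.31 in NTg mice. Every SOD1 G93A array of 120 days was above every NTg array of that age for these 4 genes (14.0% of all probe sets). Ccl5 was above the array median on no NTg array of either age, and so passed the filter through SOD1 G93A arrays alone. Cxcl10 passed it largely through the SOD1 G93A arrays of 120 days, all 3 of which were above the median. The calls and the array separation of Ccl5 and Cxcl10 cannot be read apart from that selection. The 6 called members were above the array median on all 12 arrays.

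Markers of other cells moved with the genotype as well, and their part in the members' differences was not tested. Of 21 measured microglia and macrophage markers, 15 were called higher at 120 days and 5 at 90 days, with medians of 1.90 and 1.11. Their mean level spanned 7.64 to 7.86 on the SOD1 G93A arrays, against 5.90 to 6.06 on the NTg arrays at 120 days, and 7.68 to 7.97 on the SOD1 G93A arrays, against 6.41 to 6.63 on the NTg arrays at 90 days. Itgam and Gpr34 were below the filter, and no member is on that list. Of 15 astrocyte markers, 3 were called higher at 120 days (Gfap, Aldh1l1 and Sox9) and none at 90 days, with medians of 0.15 and 0.05. Another 6 of the 15 lay below 0 at 120 days, down to -1.31, and 0 were called lower. At an unadjusted p under 0.05 in limma 3 were lower, against 15.1% of all probe sets. Of 15 neuron markers 5 were called lower at 120 days, with a median of -1.04. Lymphocyte markers were below the filter for 13 of 14 genes and neutrophil and monocyte markers for 6 of 7.

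**Figure D5:**
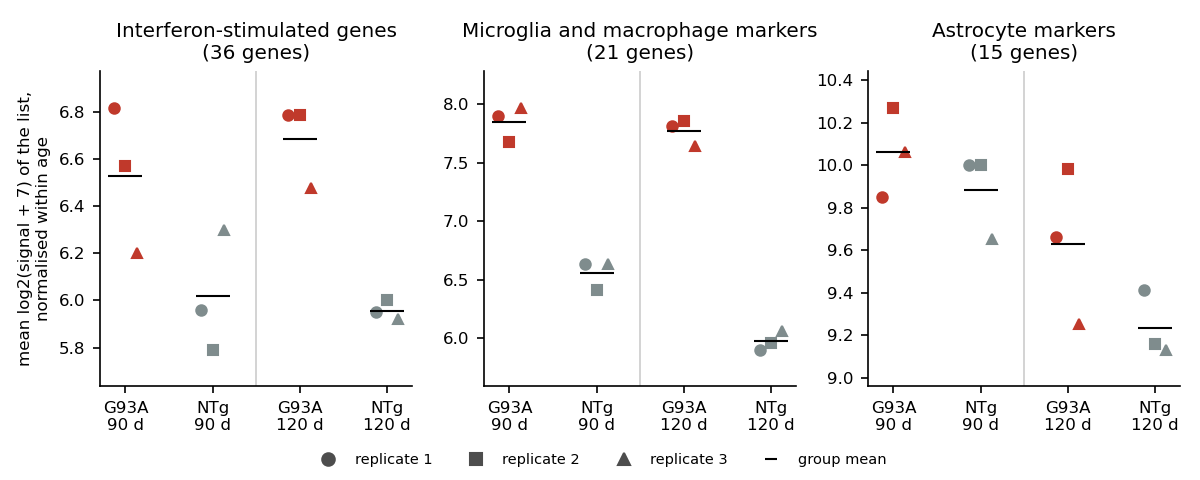
Mean log2 (signal + 7), normalised within age, over the 36 members (left), 21 microglia and macrophage markers (middle) and 15 astrocyte markers (right) on each array, with SOD1 G93A in red and NTg in grey, and the group mean as a line. The vertical axes differ between panels. The microglia and macrophage markers are apart at both ages, while the members overlap at 90 days on SOD1 G93A replicate 3 and NTg replicate 3.

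Members with and without an IRF core are set side by side here with no test. The 15 measured members with an IRF core had a median of 0.75 at 120 days and 0.56 at 90 days, and the 13 without one 0.84 and 0.44. Of the 6 called genes, Ifit3, Oas1a and Rsad2 held the core and Ifi30, Ifi35 and Irf1 did not.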

How the data were processed

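Captured RNA was amplified over 2 rounds and hybridised to 1 array per mouse. The deposited values are linear MAS5 intensity signals, with each array scaled to a trimmed mean of 100, and the tool version is not given in the sources used here. The study's own analysis used PLIER. Array number, not sequencing depth, limits the precision, with 3 mice a group. Before log2, 7 was added to the signal (percentile 20 over all arrays), and values were quantile normalised within each age, or over the 12 arrays for comparisons between ages. Probe sets above their array's median on at least 3 arrays were kept (26132 of 45101). Group means were fitted in limma 3.58.1 (R 4.3.3, residual degrees of freedom: 8), and p-values were adjusted by Benjamini-Hochberg over all kept probe sets. The procedure was tested on simulated data. Of the probe sets, 34958 had 1 symbol, 932 several and 9211 none, and the 64 control probe sets among these were not tested. The members and lists were chosen with earlier results of these data known. All measured members are named. Values of each array are given for those called between genotypes, the next 8 by p at 120 days and the 4 uncalled genes with the smallest p at 90 days. Other lists are represented by their called genes, or else by the smallest p, with ligands and receptors by level. Promoters are from RefSeq, and 8 members had none in the table. The alternatives tried were other scalings, offsets, filters, probe set rules, weights, priors and blocks, each age fitted alone, the study's 2-fold rule, and single arrays left out.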

Additional observations from a re-analysis of the deposited data

How the results depend on the processing

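The 6 calls at 120 days rest on 3 mice a group and on the scaling. Over 26 alternatives Oas1a and Rsad2 were each called in 23, Ifi30 and Ifi35 in 20, Irf1 in 18 and Ifit3 in 13, and none turned its sign. Some alternatives could hardly move these calls. Oas1a, Irf1, Ifit3 and Ifi30 have 1 probe set of their own, so the other probe set rules reread the same values. Leaving out arrays of 90 days kept the means at 120 days and altered only the shared spread. Oas1a and Rsad2 each lost the call in 3 alternatives, all of which left out an array of 120 days. The number of members called higher at 120 days was 3 with median centring, 3 with no filter on dim probe sets, 10 with array weights and 11 with the 2-fold rule. In either direction, 3500 probe sets were called with median centring and 1244 with no filter. Array weights called 2631 and the 2-fold rule 3319, against 940 higher and 1008 lower in the main fit. With single arrays left out the number of members called higher ran from 0 to 7. The labels do not say whether the replicate numbers pair the mice. Same-numbered deviations correlated at -0.28 to 0.275 at 90 days and -0.065 to 0.035 at 120 days. Such correlations cannot show whether same-numbered mice were littermates or were handled together. A fit with the replicate block called 3 members higher at 120 days, where 1063 probe sets were called in either direction. The cause of these moves was not tested.

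The median at 120 days was 0.96 with values as deposited, 0.57 with median centring and 0.53 with the offset at the 50th percentile, and 0.64 to 0.87 with single arrays left out. The median interaction was -0.00466 with median centring, and by the 2-fold rule 1 member (Rsad2) had an interaction. At 90 days 0 members were called under any alternative run.

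For SOD1 G93A at 120 against 90 days, the median was 0.25 with values as deposited, 0.18 with each age normalised alone and 0.25 with the second brightest probe set. The number called lower (Stat2) was 0 with values as deposited, each age normalised alone, the filter at the 75th percentile or the mean of a gene's probe sets. It was 6 with median centring, where 5048 of all 26132 probe sets were called in either direction. Values as deposited called 2493 probe sets, each age normalised alone 2437 and the filter at the 75th percentile 1539. The mean of a gene's probe sets called 502 genes. The number called higher was 2 with the offset at the 50th percentile, the filter at the 75th percentile, array weights, the trended and robust prior, the second brightest probe set or the 2-fold rule. The probe sets called there in either direction were, in the same order, 2364, 1539, 1439, 2180, 1830 and 3301. With single arrays left out, 0 to 3 were called higher and 0 to 1 lower. The 0 called higher came without SOD1 G93A replicate 3 of 90 days (795 probe sets called in either direction). The 3 came without SOD1 G93A replicate 1 of 120 days (2193 probe sets). Eif2ak2 was not called without SOD1 G93A replicate 3 of 90 days, with the second brightest probe set (Ifi27, Ifi35 and Rsad2 were called) or with the mean of a gene's probe sets (Rsad2 was called). Stat2 was also not called without any 1 of the SOD1 G93A arrays of 90 days, or without SOD1 G93A replicate 2 of 120 days. Its second brightest probe set was below the filter, so that rule could not call it. For NTg at 120 against 90 days, the median was -0.11 with values as deposited and -0.076 with each age normalised alone. With median centring, the second brightest probe set or the mean of a gene's probe sets 1 member was called lower. Array weights called 6 lower and 1 higher, where 5943 of all 26132 probe sets were called in either direction. The 2-fold rule called 2 lower and 1 higher, where 2126 probe sets were called. Median centring called 1336 probe sets, the second brightest probe set rule 946, and the mean of a gene's probe sets 427 genes. With single arrays left out 0 to 1 was called lower. The 1 was called without SOD1 G93A replicate 3 of 120 days, where 1965 probe sets were called in either direction.

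The genotype differences whose sign turned were not called at the age in question. At 90 days Dtx3l was 0.00425 with values as deposited, 0.17 with array weights, 0.17 with the second brightest probe set, 0.061 with the mean of its probe sets and 0.10 without SOD1 G93A replicate 1 and NTg replicate 3 together, an alternative chosen after seeing the data. Ifit2 was -0.26 with array weights and -0.20 without that pair, and Samhd1 -0.11 with the second brightest probe set. At 120 days Rtp4 was 0.37 with array weights and 0.11 with the mean of its probe sets, and Dtx3l 0.17 with the second brightest. With single arrays left out at 90 days, Ifit1 ran from -0.25 to 0.69, Rsad2 from -0.0488 to 0.81, Ifi27 from -0.0420 to 0.45, Ifit2 from -0.28 to 0.51, Bst2 from -0.15 to 0.72, Dtx3l from -0.24 to 0.15 and Usp18 from -0.022 to 0.42. At 120 days Bst2 ran from -0.40 to 0.40, Stat2 from -0.17 to 0.46 and Rtp4 from -0.97 to 0.66.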
